A study of Mus musculus with 12 samples.

Results

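The clustered histone genes are the genes for the linker histone H1 and the core histones H2A, H2B, H3 and H4 that lie together in the Hist1 to Hist4 clusters. They were taken as every array probe whose gene name begins with Hist1h, Hist2h, Hist3h or Hist4h, which gave 52 of 55681 probes and 48 of 36413 gene names. There were 6 H1, 16 H2A, 11 H2B, 8 H3 and 11 H4 probes, 38 of them for the Hist1 cluster on chromosome 13, 10 for Hist2 on chromosome 3, 3 for Hist3 on chromosome 11 and 1 for Hist4 on chromosome 6. RNA levels were measured on 1-colour Agilent mouse arrays in adult C57BL/6 mice aged 10 to 11 weeks, with 3 arrays per group and no treatment. GFRα1+ spermatogonia, which hold the stem cells, were the GFP+ cells of mice with EGFP knocked in at Gfra1. NGN3+ and KIT+ spermatogonia, the progenitors and the differentiating cells, were the GFP+/KIT− and GFP+/KIT+ cells of Ngn3-EGFP transgenic mice, in which GFP outlasts the expression of Ngn3. Whole testes came from wild-type littermates of the knock-in mice. Each GFRα1+ or KIT+ sample was from 1 mouse and each NGN3+ sample was pooled from 2 mice, with 10000 to 20000 sorted cells a sample and 25 ng of RNA labelled.

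Core histones form the nucleosome, and linker histones bind the DNA between nucleosomes. Most clustered histone genes are transcribed in S phase, when new DNA is packaged, and their mRNAs usually end in a conserved stem-loop instead of a poly(A) tail. In male germ cells the testis histones H1t (Hist1h1t), TH2A (Hist1h2aa) and TH2B (Hist1h2ba) join or replace the somatic forms, and in spermatids most histones give way to transition proteins and then protamines. Labelling kits of the type used prime cDNA from poly(A) tails in their standard protocol, which would favour histone transcripts that carry one; the share of tailed transcripts in each fraction was not measured.

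Levels are the log2 background-subtracted intensity of a probe minus the 75th percentile of its array, so that 0 is the 75th percentile. The number of arrays limits the precision. The genes behind the sorts marked their fractions: the mean log2 level of Gfra1 was 1.65 in GFRα1+, −1.22 in NGN3+ and −3.38 in KIT+ cells, that of Kit was 1.50, 1.96 and 4.55, and that of the brighter Neurog3 probe was 4.13, 5.23 and 2.77. On each array 50.1% to 65.1% of probes were well above background, a call made by the scanner software, and no spot was saturated. The arrays lay on 3 slides: GFRα1+ replicates 1 and 2 and whole testes replicate 1 on the first, GFRα1+ replicate 3 and all NGN3+ and KIT+ arrays on the second, and whole testes replicates 2 and 3 on the third. Spermatid genes were bright in the fractions from Ngn3-EGFP mice: the summed linear level of 24 such genes, in units of each array's 75th percentile, was 55.3 to 96.5 on GFRα1+, 1563 to 1987 on NGN3+ and 1893 to 2466 on KIT+ arrays, against 7734 to 9283 on whole testes arrays. The NGN3+ arrays all detected 24 of these genes, and the GFRα1+ arrays 21. The arrays also differed in the control RNAs that Agilent adds to samples: the mean log2 level of the 10 spike-in probes, 2 of them well above background on no array, was 0.80 to 1.46 on GFRα1+, −0.65 to −0.47 on NGN3+ and −0.72 to −0.64 on KIT+ arrays, against 0.501 to 1.003 on whole testes arrays. That mean, which the scaling below uses, includes probes near background that moved less. It therefore understates the gap of the brighter probes between GFRα1+ and the other sorted arrays. The brightest had 8.72 to 9.42 on GFRα1+, 6.86 to 7.02 on NGN3+, 6.77 to 6.94 on KIT+ and 8.45 to 8.90 on whole testes arrays. The amount added to each sample is not given in the sources used here, so every difference below is relative to the 75th percentile, and the values with levels set to the spike-in probes stand beside the counts.

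Histone probes were detected more often than the array as a whole. Of the 52 probes, all 3 GFRα1+ arrays had 44 well above background (84.6%, against 46.6% of all probes), all NGN3+ arrays 45 (86.5%, against 56.8%), all KIT+ arrays 45 (86.5%, against 53.4%) and all whole testes arrays 42 (80.8%, against 52.5%). Probes for Hist1h1d, Hist1h2ae and Hist1h2bg were well above background on no array. With them, the probe for Hist1h2ac and the dimmer of the pair for Hist2h4 could be tested in none of the 6 comparisons, and 45 of the 52 were tested in all 6.

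The probes do not all report a single gene. Of the 60-base probes, 8 shared an identical run of at least 30 bases with a probe of another clustered histone gene, and a transcript of either gene could bind both. They were the 6 probes for Hist1h2af, Hist1h2ag, Hist1h2ah, Hist1h2an, Hist2h2ac and 1 of those for Hist1h2ak, and the probes for Hist1h3c and Hist1h3f. The H2A probes below, which include that for Hist2h2aa2 with a shared run of 29 bases, end at the stop codon and are shown because their letters explain how far their values can be told apart. They lie in mm9, read on the strand given, at chr13:23626113-23626172 (Hist1h2af, plus), chr13:22127035-22127094 (Hist1h2ah, minus), chr13:21845304-21845363 (Hist1h2ak, minus), chr13:21878695-21878754 (Hist1h2an, minus), chr3:96049837-96049896 (Hist2h2aa2, plus) and chr3:96024378-96024437 (Hist2h2ac, minus). Capitals mark the longest run identical to the Hist1h2ah probe, which is in capitals throughout.
Hist1h2ah: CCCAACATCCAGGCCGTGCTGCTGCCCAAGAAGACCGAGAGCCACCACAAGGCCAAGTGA
Hist1h2af: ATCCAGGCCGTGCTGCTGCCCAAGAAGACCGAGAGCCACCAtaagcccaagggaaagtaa
Hist1h2ak: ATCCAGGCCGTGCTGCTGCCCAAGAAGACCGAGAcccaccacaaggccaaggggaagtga
Hist1h2an: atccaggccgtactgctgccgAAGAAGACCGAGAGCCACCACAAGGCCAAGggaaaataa
Hist2h2aa2: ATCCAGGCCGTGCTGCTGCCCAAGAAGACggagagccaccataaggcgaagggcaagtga
Hist2h2ac: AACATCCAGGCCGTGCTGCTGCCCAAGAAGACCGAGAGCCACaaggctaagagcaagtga
The runs held 41 (Hist1h2af), 34 (Hist1h2ak), 30 (Hist1h2an), 29 (Hist2h2aa2) and 42 (Hist2h2ac) bases. Outside the 52 probes, the Hist1h2an probe shared 34 bases with a probe described as histone H2A type 1-H, and the Hist2h2aa2 probe 38 bases with a probe for H2afj, the gene for the variant H2A.J, which the naming rule leaves out. These 6 probes are therefore read together as H2A transcripts, not as 6 genes.

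A further 5 probes hold the letters of the histone stem-loop, and no other probe of the array does. The loop and up to 7 bases on either side are shown, with the loop in capitals, because histone mRNAs of the usual kind are cut a few bases after it. The probes lie in mm9 at chr3:96049949-96050008 (Hist2h2aa1, plus), chr3:96074056-96074115 (Hist2h2bb, plus), chr13:23853756-23853815 (Hist1h3a, minus), chr13:23627719-23627778 (Hist1h3g, plus) and chr13:21874784-21874843 (Hist1h3i, minus).
Hist2h2aa1: taaaaaGGCTCTTTTCAGAGCCacccact
Hist2h2bb: cccaaaaGGCTCTTTTCAGAGCCacttta
Hist1h3a: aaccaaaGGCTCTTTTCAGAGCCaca
Hist1h3g: ctttaaaGGCTCTTCTTAGAGCCaccca
Hist1h3i: aacaaaaGGCTCTTTTCAGAGCCccctc
The Hist2h2aa1 probe runs on for 38 bases after the loop, and the others for 3 (Hist1h3a), 5 (Hist1h3g), 5 (Hist1h3i) and 6 (Hist2h2bb). A poly(A) signal, AATAAA or ATTAAA, stood in 4 of the histone probes (Hist1h2ag, Hist1h2be, Hist3h2ba and a probe for Hist1h4i), and in 13.7% of all probes, counted on the probe's own strand.

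**Figure D1:**
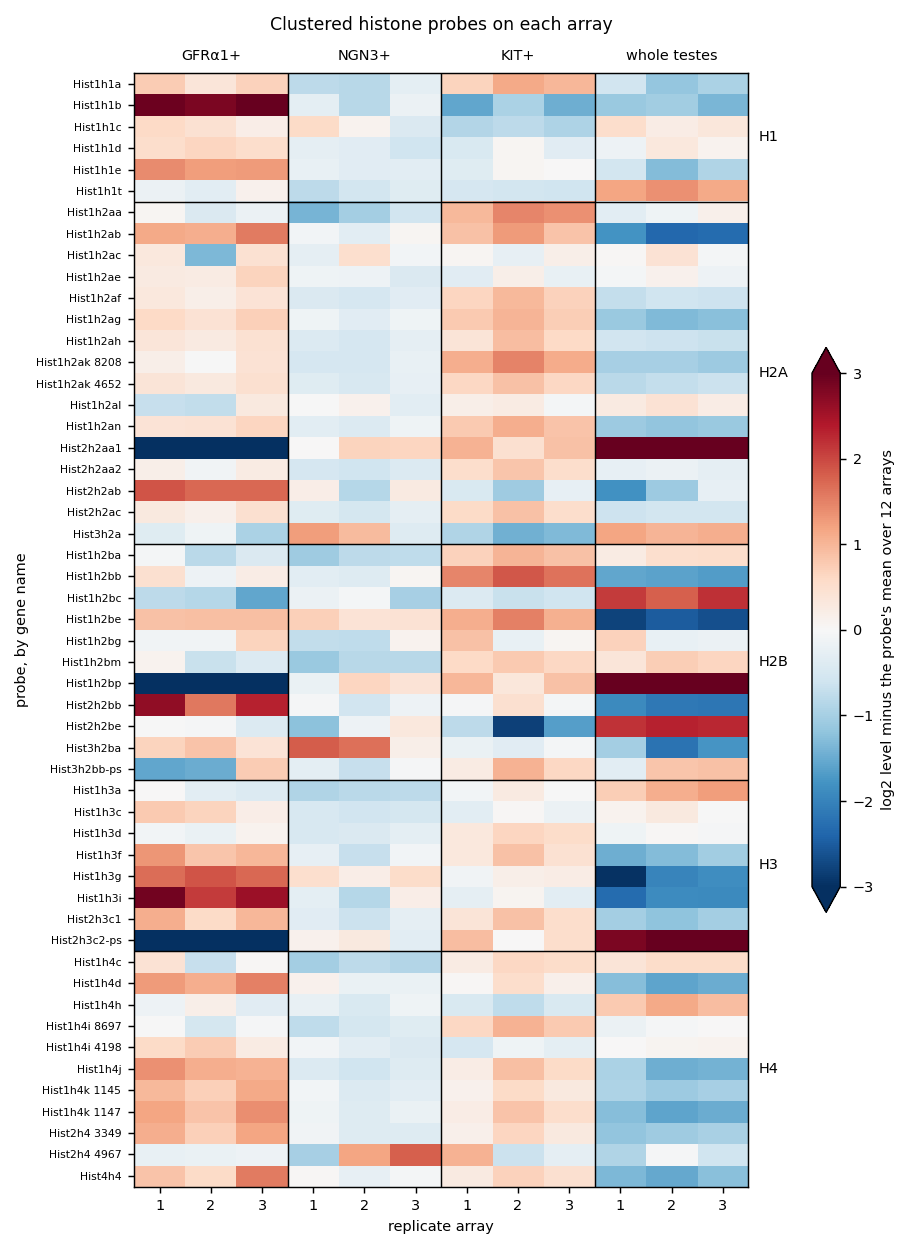
Level of each clustered histone probe on the 12 arrays, as log2 level minus the probe's mean over all arrays (colour), with probes grouped by histone type and arrays by group. Most H3 and H4 probes had their highest mean in GFRα1+ cells and most H2A probes in KIT+ cells, while Hist2h2aa1, Hist1h2bp and Hist2h3c2-ps were brightest in whole testes; colours end at 3 in either direction.

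NGN3+ cells were compared with GFRα1+ cells to ask how histone transcripts differ between progenitors and the stem cell fraction. Histone probes were mostly lower in NGN3+ cells: of 46 tested, 32 were lower and 4 higher, where 36.3% of all 31860 tested probes were lower and 18.9% higher (55.2% either way). The median log2 ratio of NGN3+ over GFRα1+ was −0.76 for histone probes and −0.20 for all probes, and with levels set to the spike-in probes both turned, to 0.95 for histone probes and 1.51 for all probes. At that scaling 30 histone probes were higher and 3 lower, where 94.2% of all probes were higher and 0.634% lower. The fall covered H1 (4 of 5 tested), H2A (11 of 14), H3 (7 of 8) and H4 (8 of 10), but only 2 of 9 H2B probes. Within the second slide, which holds all NGN3+ arrays and GFRα1+ replicate 3, 27 were lower and 4 higher, with 1 GFRα1+ array assumed to vary like the other groups. Under 3 scalings without spike-ins 23 to 28 were lower. Calling used limma with Benjamini-Hochberg adjustment over all probes and an adjusted p under 0.05.

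The linker histone Hist1h1b, which encodes H1.5, had the largest fall. Its log2 level was −1.75, −2.28 and −1.64 in NGN3+ cells, against 1.48, 1.37 and 1.63 in GFRα1+ cells. The groups were far apart (log2 ratio −3.38 ± 0.21, SE, adjusted p = 5.24e-06). Hist1h1e, which encodes H1.4, had 1.67, 1.56 and 1.58 in NGN3+ cells, against 3.33, 3.17 and 3.17 in GFRα1+ cells (log2 ratio −1.62 ± 0.13, adjusted p = 2.08e-05). Hist1h1a, which encodes H1.1, fell by 1.25 ± 0.19 on the log2 scale (adjusted p = 0.000836). With levels set to the spike-in probes the ratios of Hist1h1e and Hist1h1a turned, and that of Hist1h1b stayed negative. Hist1h1c, for H1.2, did not pass the test at −0.34 ± 0.23 (adjusted p = 0.234), and NGN3+ replicate 1 lay within the GFRα1+ values.

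Among core histones, the probes with the largest falls, for Hist1h3i and Hist2h2bb, both hold the stem-loop. Hist1h3i, an H3 gene, had log2 levels of −2.57, −3.14 and −2.08 in NGN3+ cells, against 0.61, −0.19 and 0.28 in GFRα1+ cells. The groups did not overlap, and the log2 ratio was −2.83 ± 0.29 (SE, adjusted p = 7.92e-05). Hist2h2bb, an H2B gene, had 0.12, −0.42 and −0.01 in NGN3+ cells, against 2.81, 1.73 and 2.46 in GFRα1+ cells, and its log2 ratio was −2.44 ± 0.29 (adjusted p = 0.000178). Hist2h2bb thus stood apart from most other H2B probes, of which Hist1h2ba, Hist1h2bb, Hist1h2bc, Hist1h2be, Hist2h2be and Hist3h2ba passed the test in neither direction. Hist1h2bm was lower too, by less, with a mean log2 level of 3.29 in NGN3+ and 3.89 in GFRα1+ cells. Hist1h3g fell by 1.35 ± 0.14 (adjusted p = 8.06e-05) and Hist1h3a by 0.60 ± 0.14 on the log2 scale (adjusted p = 0.00792), so 4 of the 5 stem-loop probes were lower in NGN3+ cells. The mean level of the spike-in probes differed by −1.71 between these groups. With levels set to it, the ratios of Hist1h3g, Hist1h3a and Hist1h2bm turned, while those of Hist1h3i and Hist2h2bb stayed negative. The brighter spike-in probes differed by more than this mean, and scaling to them alone was not tested.

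Of the 10 H4 probes tested, those for Hist1h4h and one of the pair for Hist1h4i did not pass, and the other 8 were lower. Hist1h4j fell by 1.63 ± 0.18 on the log2 scale, Hist1h4d by 1.38 ± 0.18, the brighter Hist2h4 probe by 1.28 ± 0.17 and Hist4h4 by 1.09 ± 0.24. Both Hist1h4k probes fell, by 1.22 ± 0.17 and 1.38 ± 0.19. With levels set to the spike-in probes these H4 ratios turned. The H4 genes encode the same protein and several of their probes share shorter runs of sequence, up to 26 bases between Hist1h4j and Hist1h4k. Among H2A probes, Hist1h2ab had a log2 ratio of −1.37 ± 0.18 (adjusted p = 0.000283), and the 6 probes printed above lay between −0.78 and −0.60. Hist2h2ab fell by 1.91 ± 0.32 (adjusted p = 0.0012), with 2 of 3 NGN3+ arrays well above background. With levels set to the spike-in probes the ratios of Hist1h2ab and the 6 printed probes turned, and the call for Hist2h2ab was lost.

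**Figure D2:**
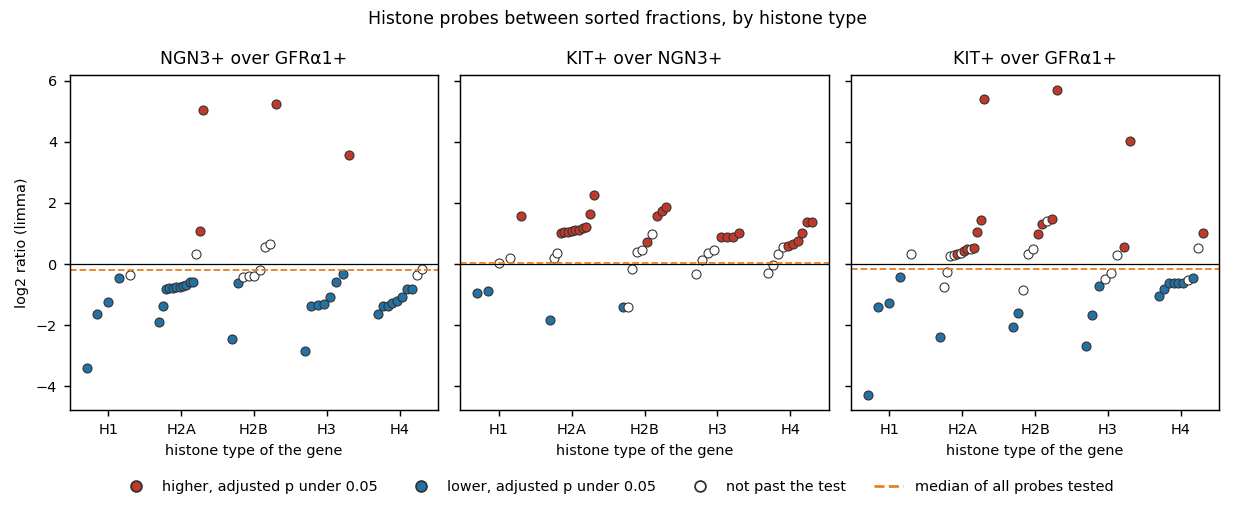
Log2 ratio from limma of each tested histone probe (points) in 3 comparisons of sorted cells, by histone type; red and blue points passed an adjusted p under 0.05 upward and downward, and the dashed line is the median of all probes tested. In NGN3+ over GFRα1+ most H1, H2A, H3 and H4 points lie below 0, which turns with levels set to the spike-in probes, in KIT+ over NGN3+ most called points lie above 0, and in KIT+ over GFRα1+ more H2A points lie above 0 and more H4 points below, where the spike-in scaling moves all of them up.

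The 4 probes higher in NGN3+ cells were Hist1h2bp, Hist2h2aa1, Hist2h3c2-ps and Hist3h2a. Hist1h2bp, an H2B gene, had log2 levels of 1.83, 2.68 and 2.46 in NGN3+ cells, against −2.79, −3.16 and −2.80 in GFRα1+ cells (log2 ratio 5.24 ± 0.25, SE, adjusted p = 2.23e-06). Hist2h2aa1 had 4.03, 4.69 and 4.67 in NGN3+ cells, against −0.88, −0.37 and −0.51 in GFRα1+ cells (log2 ratio 5.05 ± 0.23, adjusted p = 2.07e-06). Hist2h3c2-ps is named as a pseudogene by the array annotation, while its RefSeq symbol is H3c15. It had −2.54, −2.37 and −2.97 in NGN3+ cells, against −6.22, −6.27 and −6.10 in GFRα1+ cells. None of those GFRα1+ arrays was well above background, so its level was at least 3.29-fold higher in NGN3+ cells. Such a bound takes for every dim array the dimmest signal called well above background, or the probe's signal where that is brighter. Hist3h2a, an H2A gene of the Hist3 cluster, rose by less, 1.09 ± 0.41 (adjusted p = 0.0496), and its groups overlapped, with 0.03, −0.28 and −1.63 in NGN3+ cells, against −1.61, −1.36 and −2.19 in GFRα1+ cells. The call for Hist3h2a was lost in 12 alternatives, among them the slide as a block and leaving out any GFRα1+ array or NGN3+ replicate 1 or 2.

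Hist1h2bp, Hist2h2aa1 and Hist2h3c2-ps were brighter still in whole testes, and spermatid genes moved with them. In KIT+ cells Hist1h2bp had 3.03, 2.38 and 2.93 and in whole testes 5.69, 6.08 and 6.15. Hist2h2aa1 had 5.06, 4.50 and 4.90 in KIT+ cells, against 7.33, 7.46 and 7.37 in whole testes. The level of Hist2h3c2-ps was at least 26.1-fold lower in GFRα1+ cells than in whole testes, where it had 0.17, 0.39 and 0.53. In NGN3+ over GFRα1+ cells 23 of 24 spermatid genes were higher and 0 lower (median log2 ratio 5.28), and for the transition protein and protamine genes the log2 ratio was 4.85 for Tnp1, 5.79 for Tnp2, 5.08 for Prm1 and 5.16 for Prm2. Among 19 histone variant genes that the naming rule leaves out, those for the spermatid variants H1fnt, Hils1, H2al1 and H2bl1 had log2 ratios of 6.16, 5.81, 5.76 and 5.50. GFRα1+ replicate 3, on the slide of the NGN3+ arrays, had a summed spermatid level of 96.5. Somatic markers differed too: 12 of 18 tested Sertoli cell genes and 7 of 8 peritubular myoid genes were higher in NGN3+ cells, with summed linear levels of 100.3 to 138 in NGN3+ and 109.8 to 122 in GFRα1+ cells for Sertoli genes, and of 18.8 to 32.3 in NGN3+ and 5.64 to 6.83 in GFRα1+ cells for myoid genes. Leydig and endothelial genes summed lower, to 2.23 to 3.51 in NGN3+ and 6.06 to 10.8 in GFRα1+ cells for Leydig genes (of 2 tested, Cyp17a1 was called, at −1.76), and to 5.76 to 9.87 in NGN3+ and 10.53 to 16.19 in GFRα1+ cells for endothelial genes (1 of 7 tested higher and 2 lower, Kdr at −1.26 and Flt1 at −0.92). The part of RNA from these cell types in the histone values was not tested. Fewer cells of a type and less RNA per cell cannot be told apart in such bulk samples.

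The Hist2h2aa1 and Hist2h2aa2 probes went in opposite directions from the same place. Their mm9 positions lie on the plus strand of chromosome 3 with 52 bases between them, the Hist2h2aa2 probe at the end of a coding sequence and the Hist2h2aa1 probe across the stem-loop and beyond. In RefSeq (GRCm38.p6) Hist2h2aa1 lies on the plus strand and Hist2h2aa2 on the minus strand, so both probes have the strand of Hist2h2aa1. The difference between these probes is therefore not read as one between 2 genes. Hist2h2aa2 had log2 levels of 7.26, 7.18 and 7.36 in NGN3+ cells, against 7.93, 7.65 and 8.02 in GFRα1+ cells (log2 ratio −0.60 ± 0.14, SE, adjusted p = 0.0064), where Hist2h2aa1 was higher by 5.05. Between GFRα1+ cells and whole testes, Hist2h2aa2 differed by 0.33 ± 0.13 (adjusted p = 0.034), a call lost in 12 alternatives and turned in 2 others, and Hist2h2aa1 by −7.97 ± 0.21 (adjusted p = 1.24e-10). The Hist2h2aa2 probe shares up to 29 bases with other clustered H2A probes and 38 with that for H2afj, so its value need not come from this locus alone.

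**Figure D3:**
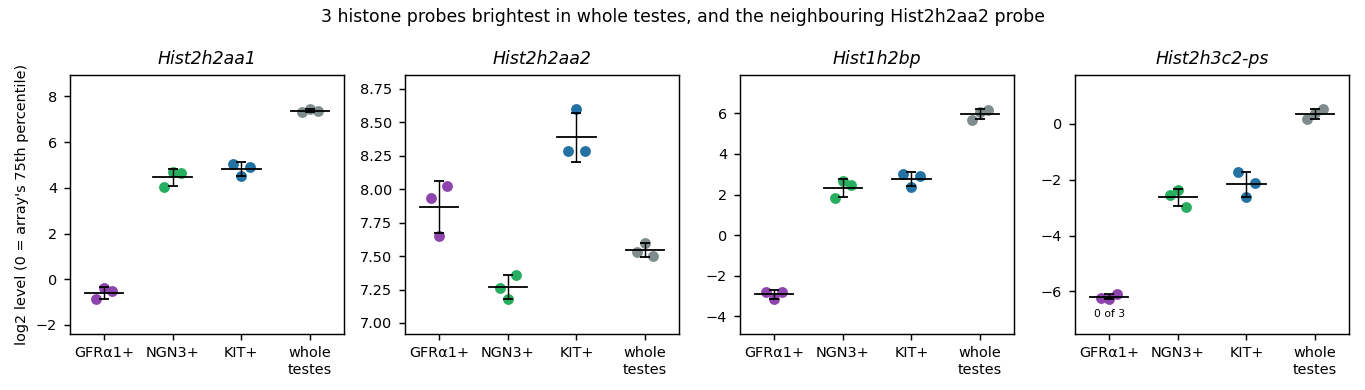
Log2 level on each array (points; 0 is the array's 75th percentile) with mean and SD (bars, n = 3) for Hist2h2aa1, Hist2h2aa2, Hist1h2bp and Hist2h3c2-ps in GFRα1+, NGN3+ and KIT+ cells and whole testes; "0 of 3" marks a group with no array well above background. Hist2h2aa1, Hist1h2bp and Hist2h3c2-ps step up from GFRα1+ arrays to NGN3+ and KIT+ arrays and again to whole testes, and Hist2h2aa2 lies between 7.18 and 8.60 on all arrays.

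KIT+ cells were compared with NGN3+ cells, all on the second slide, to follow the step into differentiation. Most histone probes that passed the test were higher: of 46 tested, 25 were higher and 4 lower in KIT+ cells, where 16.9% of all 32328 tested probes were higher and 16.9% lower (33.9% either way). The median log2 ratio of KIT+ over NGN3+ was 0.74 for histone probes and 0.04 for all probes. Higher probes made up 10 of 13 tested for H2A, 6 of 10 for H4, 4 of 8 for H3, 4 of 10 for H2B and 1 of 5 for H1. Under 3 scalings without spike-ins 25 or 26 were higher and 4 lower, and with levels set to the spike-in probes 22 were higher and 3 lower, where 8.62% of all probes were higher and 8.77% lower. Somatic markers moved here as well: of 8 tested myoid genes 1 was higher and 5 lower, with Acta2 at −2.24 and Myh11 at −2.26, of 8 tested endothelial genes 0 were higher and 4 lower, and of 18 tested Sertoli genes 2 were higher and 3 lower. Summed linear levels were 19.0 to 23.7 in KIT+ and 18.8 to 32.3 in NGN3+ cells for myoid genes and 4.95 to 5.18 in KIT+ and 5.76 to 9.87 in NGN3+ cells for endothelial genes, and their part in the histone values was not tested. This comparison shares its NGN3+ arrays with the one above, so an error in them would move both, in opposite directions.

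The testis core histones rose together in KIT+ cells. Hist1h2aa, for TH2A, had log2 levels of 2.40, 2.89 and 2.79 in KIT+ cells, against 0.03, 0.39 and 0.84 in NGN3+ cells. This was the largest rise, 2.27 ± 0.23 (SE, adjusted p = 0.000183), with no overlap between groups. In NGN3+ over GFRα1+ cells its log2 ratio was −0.81 ± 0.23 (adjusted p = 0.0159), a call turned with levels set to the spike-in probes and lost in 6 other alternatives, among them the second slide alone and leaving out GFRα1+ replicate 1 or NGN3+ replicate 1 or 2. Its neighbour Hist1h2ba, for TH2B, had 4.28, 4.61 and 4.46 in KIT+ cells, against 2.53, 2.80 and 2.82 in NGN3+ cells (log2 ratio 1.74 ± 0.20, adjusted p = 0.000299). Against GFRα1+ cells, KIT+ cells were also higher, by 1.46 ± 0.23 for Hist1h2aa (adjusted p = 0.000501) and by 1.30 ± 0.19 for Hist1h2ba (adjusted p = 0.000359). Of 20 spermatocyte genes, 11 were higher and 0 lower in KIT+ than in NGN3+ cells, and 19 of 19 tested genes of undifferentiated spermatogonia were lower; their part in these values was not tested. The linker histone of the testis did not move with them: Hist1h1t had −0.28, −0.34 and −0.37 in KIT+ cells, against −0.58, −0.33 and −0.15 in NGN3+ cells (log2 ratio 0.02 ± 0.15, adjusted p = 0.933; 95% interval −0.33 to 0.37). Hist1h1t was highest in whole testes, at 1.41, 1.60 and 1.34, and its fall of 0.45 ± 0.15 in NGN3+ relative to GFRα1+ cells (adjusted p = 0.034) was turned with levels set to the spike-in probes and lost in 8 other alternatives, among them leaving out GFRα1+ replicate 1 or 3 or NGN3+ replicate 1 or 2.

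TH2A and TH2B are encoded head to head. In RefSeq (GRCm38.p6) the 250 bases before the start of Hist1h2ba and those before the start of Hist1h2aa share 220 bases on opposite strands, so a single window is shown because both genes lie on either side of it, with capitals for its matches, on either strand, to the CCAAT box, to the TATA box (TATAAA) and to the octamer ATTTGCAT. It is chr13:23934157-23934406, minus strand.
Hist1h2ba: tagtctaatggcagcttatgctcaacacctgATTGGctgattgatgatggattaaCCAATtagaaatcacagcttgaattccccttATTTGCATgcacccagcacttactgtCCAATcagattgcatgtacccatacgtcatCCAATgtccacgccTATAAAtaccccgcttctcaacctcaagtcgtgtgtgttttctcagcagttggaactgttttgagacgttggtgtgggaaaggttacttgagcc
The window holds 4 CCAAT matches, 1 TATAAA match and 1 ATTTGCAT match. The 250 bases before Hist1h2aa hold 2 TATAAA matches, and the one nearer to that gene is not complete in the printed window. Of the 48 genes, 41 had a promoter in the RefSeq table. CCAAT on either strand was in 34 of them (82.9%), against 33.9% of all 32851 promoters, and TATAAA in 21 (51.2%), against 12.4%. ATTTGCAT, the octamer known from H2B promoters, was in 13 (31.7%), against 1.60%, namely in 7 of 14 H2A and 6 of 8 H2B promoters and in none of the H1, H3 or H4 ones. Motifs that overlapped were counted for each, windows of divergent genes overlap, and a match is a description of the letters only.

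Other rises in KIT+ cells were spread over H2A, H2B, H3 and H4 genes. Hist1h2bb had log2 levels of −0.17, 0.23 and −0.01 in KIT+ cells, against −1.96, −2.02 and −1.59 in NGN3+ cells (log2 ratio 1.87 ± 0.19, SE, adjusted p = 0.000202). Hist1h2bm rose by 1.59 ± 0.19 (adjusted p = 0.00045). One Hist1h2ak probe, which shares no long run with others, had 6.12, 6.50 and 6.14 in KIT+ cells, against 4.52, 4.52 and 4.80 in NGN3+ cells (log2 ratio 1.64 ± 0.16, adjusted p = 0.000167). The 6 H2A probes printed above all rose, by 1.03 to 1.20. Hist1h1a was the single linker histone to rise, with 3.40, 3.87 and 3.73 in KIT+ cells, against 1.95, 1.89 and 2.45 in NGN3+ cells (log2 ratio 1.57 ± 0.19, adjusted p = 0.00048).

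The probes for Hist1h4i disagreed, so no direction is given for that gene. One had a log2 ratio of KIT+ over NGN3+ of 1.37 ± 0.19 (SE, adjusted p = 0.000733) and the other −0.03 ± 0.17 (adjusted p = 0.922). Against GFRα1+ cells they passed the test in opposite directions, at 1.01 ± 0.18 and −0.83 ± 0.17, but the call on the lower side was lost with the slide as a block (−0.54, adjusted p = 0.0508). The probe with the lower values holds a poly(A) signal.

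The 4 probes lower in KIT+ than in NGN3+ cells were for Hist3h2a, Hist3h2ba, Hist1h1c and Hist1h1b. Hist3h2a had log2 levels of −2.13, −2.68 and −2.57 in KIT+ cells, against 0.03, −0.28 and −1.63 in NGN3+ cells (log2 ratio −1.83 ± 0.41, SE, adjusted p = 0.00917). Hist3h2ba, an H2B gene of the same cluster, had −2.04, −2.19 and −1.91 in KIT+ cells, against −0.05, −0.20 and −1.68 in NGN3+ cells (log2 ratio −1.41 ± 0.38, adjusted p = 0.021). In both genes NGN3+ replicate 3 was close to the KIT+ arrays, and the call for Hist3h2ba was lost without NGN3+ replicate 1 or 2 or KIT+ replicate 1 or 2. Hist1h1c fell by 0.94 ± 0.23 (adjusted p = 0.014) and Hist1h1b by a further 0.89 ± 0.21 (adjusted p = 0.012). By the methods' t-test with Benjamini-Hochberg adjustment none of the 4 passed. With levels set to the spike-in probes the call for Hist1h1b was lost as well.

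**Figure D4:**
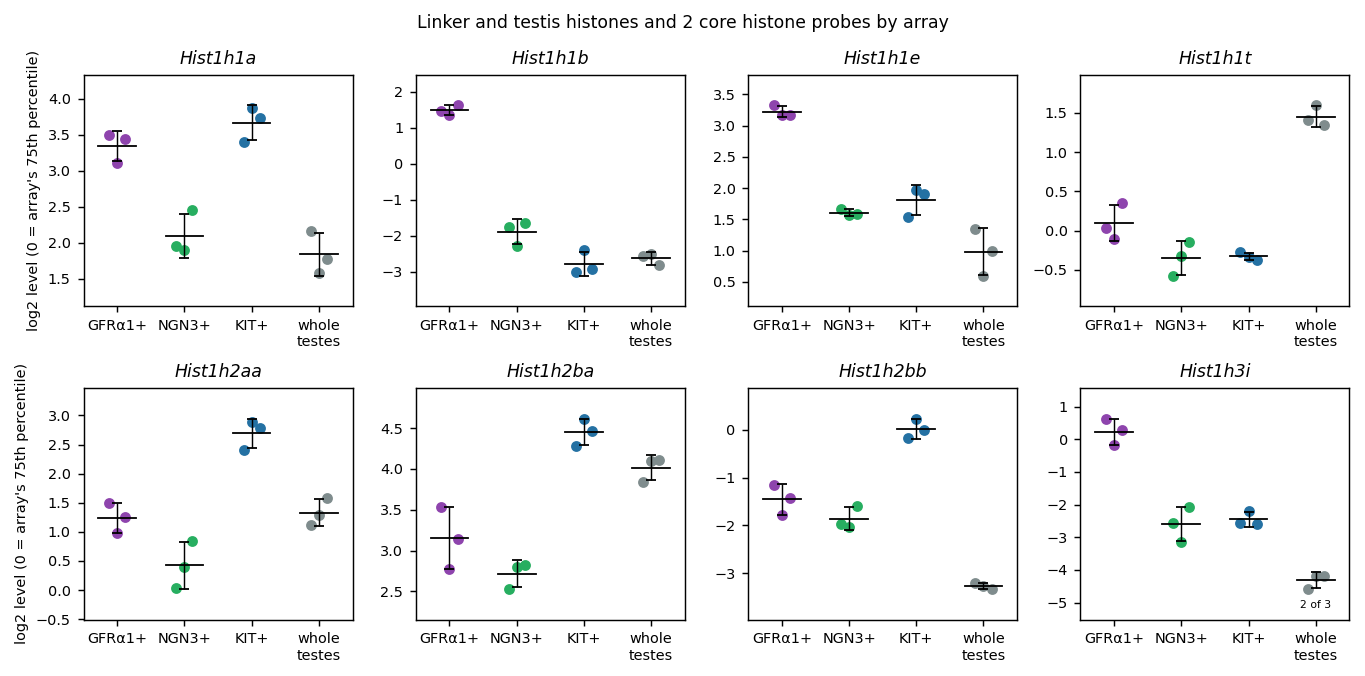
Log2 level on each array (points; 0 is the array's 75th percentile) with mean and SD (bars, n = 3) for linker histones Hist1h1a, Hist1h1b, Hist1h1e and Hist1h1t, testis histones Hist1h2aa and Hist1h2ba, and Hist1h2bb and Hist1h3i; vertical axes differ, and "2 of 3" gives the arrays well above background where not all were. The mean of Hist1h1b falls at each step from GFRα1+ to KIT+ cells, and Hist1h1a dips in NGN3+ cells. With levels set to the spike-in probes the call for the second Hist1h1b step is lost, and the Hist1h1a fall from GFRα1+ cells turns. Hist1h2aa, Hist1h2ba and Hist1h2bb are highest in KIT+ cells.

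KIT+ cells set directly against GFRα1+ cells showed which histone probes differed between the differentiating and the stem cell fraction. Of 47 tested, 14 were higher and 17 lower in KIT+ cells, where 25.6% of all 30599 tested probes were higher and 39.7% lower (65.3% either way). The balance depended on the scaling: with the 75th percentile taken over detected probes 21 were higher and 15 lower, and with quantile normalization 19 were higher and 15 lower. With levels set to the spike-in probes 39 were higher and 2 lower, where 88.4% of all probes were higher and 2.81% lower. The second slide alone, with GFRα1+ replicate 3 as its single GFRα1+ array, gave 10 higher and 13 lower, the spread coming from the other groups. By type, H2A had 7 higher and 1 lower of 14 tested, H2B 4 and 2 of 10, H3 2 and 3 of 8, H4 1 and 7 of 10, and H1 0 and 4 of 5.

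Hist1h1b again had the largest fall, with log2 levels of −3.02, −2.40 and −2.93 in KIT+ cells, against 1.48, 1.37 and 1.63 in GFRα1+ cells (log2 ratio −4.27 ± 0.21, SE, adjusted p = 7.18e-07). Against whole testes, which had −2.56, −2.51 and −2.83, the log2 ratio of KIT+ cells was −0.15 ± 0.20 (adjusted p = 0.5; 95% interval −0.60 to 0.30). Hist1h1e had 1.54, 1.97 and 1.91 in KIT+ cells, against 3.33, 3.17 and 3.17 in GFRα1+ cells (log2 ratio −1.41 ± 0.13, adjusted p = 1.97e-05). That ratio turned with levels set to the spike-in probes. Hist1h1a, by contrast, differed by 0.32 ± 0.19 (adjusted p = 0.168; 95% interval −0.11 to 0.76).

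Some core histone probes were low in KIT+ as in NGN3+ cells. Hist1h3i had −2.56, −2.19 and −2.60 in KIT+ cells, against 0.61, −0.19 and 0.28 in GFRα1+ cells (log2 ratio −2.69 ± 0.29, SE, adjusted p = 4.75e-05). Hist2h2bb fell by 2.06 ± 0.28 (adjusted p = 0.000235) and Hist1h3g by 1.66 ± 0.14 on the log2 scale (adjusted p = 9.87e-06), so that 3 of the 5 stem-loop probes were lower, Hist2h2aa1 was higher by 5.41, and Hist1h3a did not pass at 0.30. With levels set to the spike-in probes the ratio of Hist1h3g turned and the call for Hist2h2bb was lost. Hist2h2ab was well above background on no KIT+ array and at least 3.93-fold lower in KIT+ cells. Its call too was lost with levels set to the spike-in probes. The 6 H2A probes printed above had log2 ratios of 0.27 to 0.52, 4 of them past the test, and all 4 calls were lost with the slide as a block, where the 6 ratios were 0.17 to 0.37. Of the H4 probes, Hist1h4d had a log2 ratio of −1.05 ± 0.17 (adjusted p = 0.000697), which turned with levels set to the spike-in probes. That the types differ was not tested as such.

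Genes of the cell cycle moved with the histone probes from GFRα1+ to NGN3+ and on to KIT+ cells, and genes of histone supply did so only in part. The part of either in the result was not tested. In NGN3+ over GFRα1+ cells, 26 of 29 tested S phase genes were lower and 0 higher, with a median log2 ratio of −0.68, and in KIT+ over NGN3+ cells 24 were higher and 1 lower, with a median of 0.76. With levels set to the spike-in probes the first turned, to 27 higher and 0 lower and a median of 1.03, and the second stayed, with 19 higher and 0 lower and a median of 0.86. For Tk1, the thymidine kinase, the NGN3+ over GFRα1+ log2 ratio was −1.49, and for the DNA primase subunit Prim1 −1.58. For Rrm2, a subunit of ribonucleotide reductase, the KIT+ over NGN3+ log2 ratio was 1.64, and for Pcna, the sliding clamp of DNA polymerase, 0.89. Of 18 genes of G2 and M phase tested, 17 were lower in NGN3+ than in GFRα1+ cells, and 15 were higher in KIT+ than in NGN3+ cells. Between KIT+ and GFRα1+ cells, 4 S phase genes were higher and 4 lower, and with levels set to the spike-in probes 28 and 0.

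With levels relative to the 75th percentile, of 32 tested genes for the transcription and processing of histone mRNA, 18 fell and 1 rose in NGN3+ relative to GFRα1+ cells (median −0.43), and 13 were higher and 2 lower in KIT+ than in NGN3+ cells (median 0.24). The cell cycle transcription factor gene E2f1 had a KIT+ over NGN3+ log2 ratio of 0.64, and Cpsf2, a subunit of the cleavage machinery, 1.45. Slbp, which encodes the protein that binds the stem-loop and was singled out after its values were seen, had −0.32 ± 0.14 (SE, adjusted p = 0.0831) in NGN3+ over GFRα1+ cells and 0.71 ± 0.14 (adjusted p = 0.00531) in KIT+ over NGN3+ cells. Npat, for the coactivator of clustered histone genes, was well above background on no array. Among 28 tested histone chaperone and importer genes, 17 fell and 1 rose in NGN3+ relative to GFRα1+ cells. With levels set to the spike-in probes 0 of the 32 and 1 of the 28 were lower in NGN3+ cells. In KIT+ over NGN3+ cells, 8 of 27 chaperone and importer genes were higher and 4 lower, the higher ones including Asf1b, an S phase H3-H4 chaperone (0.93), and Mcm2 of the replicative helicase, which binds H3-H4 (0.86). Their median was 0.03, against 0.04 for all probes. In KIT+ over GFRα1+ cells 4 of 28 were higher and 16 lower (median −0.40), and of the 32 processing genes 3 were higher and 9 lower. Of all probes 25.6% were higher there and 39.7% lower. With levels set to the spike-in probes these were 24 and 0 of the 28, and 32 and 0 of the 32.

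Histone variant genes that the naming rule leaves out, most of which have polyadenylated transcripts, went in both directions. In NGN3+ over GFRα1+ cells 5 of 19 were higher, all genes expressed in spermatids, and 7 were lower. Of all probes 18.9% were higher there and 36.3% lower. With levels set to the spike-in probes 19 were higher and 0 lower, where 94.2% of all probes were higher and 0.634% lower. In KIT+ over NGN3+ cells 6 were higher and 3 lower, where 16.9% of all probes were higher and 16.9% lower. Before the spike-in scaling, the lower share was near that of all probes in both comparisons. The 3 lower genes were H2afy (log2 ratio −1.66 ± 0.15, SE, adjusted p = 9.71e-05) and H2afy2 (−2.09 ± 0.16, adjusted p = 5.45e-05), which encode macroH2A histones, and H2afy3, with −2.68 ± 0.18 (adjusted p = 3.29e-05). H2afj, for the variant H2A.J, rose by 1.22 ± 0.13 (adjusted p = 0.000262).

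**Figure D5:**
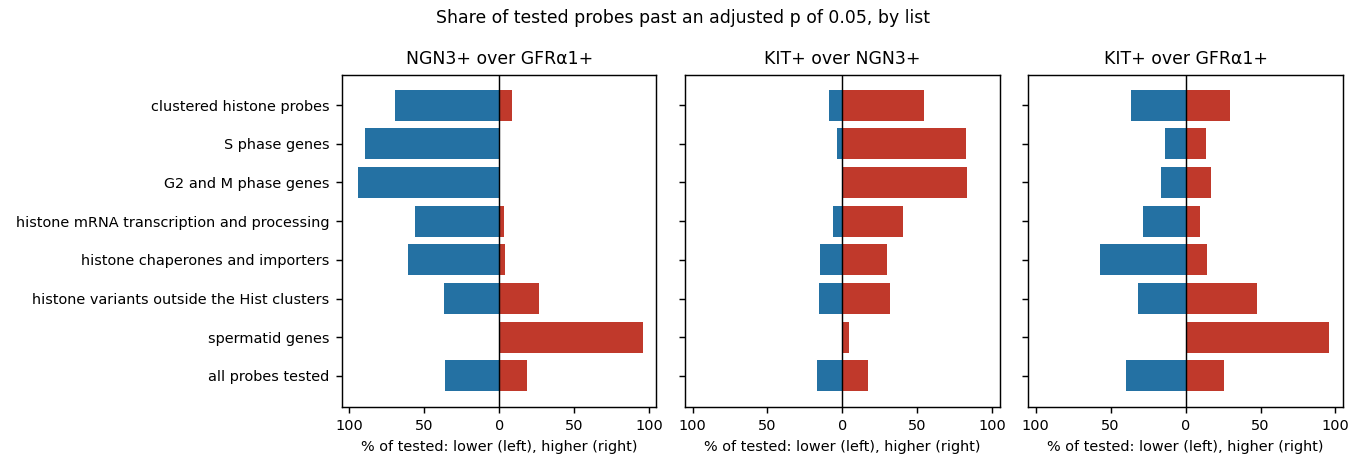
Share of tested probes past an adjusted p of 0.05, lower to the left in blue and higher to the right in red, in 3 comparisons of sorted cells, for the clustered histone probes, 6 lists of other genes and all probes tested. S phase, G2 and M phase and histone probes lean left in NGN3+ over GFRα1+, which turns with levels set to the spike-in probes, and right in KIT+ over NGN3+, while spermatid genes lean right in both comparisons with GFRα1+ cells.

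Whole testes hold all germ cells and somatic cells, and each fraction was set against them to place the sorted levels. In GFRα1+ cells 29 of 46 tested histone probes were higher and 13 lower, where 50.6% of all probes were higher and 36.7% lower (87.3% either way). In NGN3+ cells 21 of 45 were higher and 15 lower, where 44.7% of all probes were higher and 38.4% lower (83.1% either way). In KIT+ cells 29 of 46 were higher and 11 lower, where 43.9% of all probes were higher and 40.6% lower (84.4% either way). The median log2 ratios of histone probes were 1.05 in GFRα1+, 0.22 in NGN3+ and 1.24 in KIT+ cells, against 0.44, 0.19 and 0.10 for all probes. No slide holds NGN3+ or KIT+ arrays with whole testes. With the slide as a block, linked through GFRα1+ arrays, 9 probes were higher and 10 lower in NGN3+ cells, and 23 were higher and 9 lower in KIT+ cells. Within the first slide, which holds 1 whole testes array, 28 were higher and 9 lower in GFRα1+ cells, the spread coming from the pair of GFRα1+ arrays. With levels set to the spike-in probes 25 were higher and 13 lower in GFRα1+, 33 and 5 in NGN3+ and 36 and 6 in KIT+ cells, where 42%, 65.4% and 65.2% of all probes were higher and 38.7%, 19.7% and 20% lower.

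Hist1h2be, an H2B gene, was the probe that most exceeded whole testes in KIT+ cells. It had log2 levels of 1.50, 1.93 and 1.49 in KIT+ cells, against −2.36, −2.08 and −2.22 in whole testes (log2 ratio 3.86 ± 0.14, SE, adjusted p = 3.25e-09), and was also higher in GFRα1+ and NGN3+ cells, by 3.53 and 3.15. Hist1h2ab, with 6.03, 6.43 and 6.01 in KIT+ cells, against 3.35, 2.80 and 2.84 in whole testes, was higher by 3.17 ± 0.19 (adjusted p = 4.95e-08). Hist1h2bb was higher by 3.28 ± 0.18 in KIT+ cells (adjusted p = 2.15e-08). In GFRα1+ cells Hist2h2bb exceeded whole testes by 4.26 ± 0.26 (adjusted p = 2.59e-08) and Hist1h1b by 4.12 ± 0.20 (adjusted p = 3.73e-09).

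Histone probes brighter in whole testes were fewer and included H2B genes. Hist1h2bc had log2 levels of −0.72, −0.97 and −0.90 in KIT+ cells, against 1.80, 1.50 and 1.88 in whole testes (log2 ratio −2.59 ± 0.26, SE, adjusted p = 2.99e-06), and its log2 ratio was −3.10 in GFRα1+ and −2.43 in NGN3+ cells. Hist2h2be, detected on 1 of 3 KIT+ arrays, was also dimmer in the sorted cells, and its log2 ratio of GFRα1+ cells over whole testes was −2.40 ± 0.47 (adjusted p = 0.000531). Hist1h1t was lower in each fraction, by −1.35 ± 0.15 in GFRα1+, −1.80 ± 0.15 in NGN3+ and −1.78 ± 0.15 in KIT+ cells (the calls in NGN3+ and KIT+ cells being lost with levels set to the spike-in probes), and the summed linear level of 20 spermatocyte genes was 176 to 192 in GFRα1+, 179 to 212 in NGN3+ and 283 to 294 in KIT+ cells, against 687 to 761 in whole testes. The part of spermatocyte RNA in the level of Hist1h1t was not tested. Hist1h2ba was higher in KIT+ cells than in whole testes by 0.44 ± 0.19 (adjusted p = 0.0453), a call lost in 9 alternatives, among them leaving out KIT+ replicate 2 or 3 or any whole testes array, and Hist1h2aa was higher by 1.36 ± 0.23 (adjusted p = 0.000158).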

How the data were processed

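RNA from 12 samples was hybridised to 1-colour (Cy3) Agilent SurePrint G3 mouse arrays. Per the file headers, the authors extracted spot intensity with Agilent Feature Extraction 10.7.3.1 or 10.7.1.1, which subtracts the background. The authors also deposited a log2 table, which matched log2 processed intensity minus the 75th percentile of its array to within 0.05 for at least 99.97% of probes on each array. Flags deposited by the authors for outlier and well-above-background spots (values of another kind, 0 or 1) were used as given. Here log2 intensity minus each array's 75th percentile was computed from the scanner files, without 103 to 161 outlier spots an array, and spots of a probe were averaged. Probes entered a comparison if either of its groups had them well above background on each of its 3 arrays. limma 3.58.1 in R 4.3.3 was fitted to the 9 sorted arrays, or to all 12 for comparisons with whole testes, with Benjamini-Hochberg adjustment over all probes and a threshold of 0.05, and was tested on simulated data. With 3 arrays a group, the exact permutation test cannot give a p below 0.1. Named in each comparison were the 10 largest rises and falls among called, detected and non-overlapping probes, the linker and testis histones, genes outside Hist1 and up to 4 genes of each list. The members and lists were chosen with earlier results of these data known. Alternatives were other scalings (that to the mean log2 level of the spike-in probes was added after seeing the data), background correction, filters, fits, slide and replicate blocks, the t-test of the methods and leaving out each array. Probe positions are in mm9 and promoters in GRCm38.p6, and the 2 builds were not joined.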

Additional observations from a re-analysis of the deposited data

How the results depend on the processing

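Of 242 alternative counts of histone probes past the test, 233 stayed within 1.5 times the reported count. Of the others, 7 came with the spike-in scaling below, and the rest were the probes lower in KIT+ than in NGN3+ cells, 0 by the methods' t-test with Benjamini-Hochberg adjustment against 4, and those higher in NGN3+ cells than in whole testes, 9 with the slide as a block against 21; the cause was not tested. Of 3537 alternative values of named probes, 3317 kept direction and call, 131 lost the call, 45 gained one and 44 changed sign, 3 of them without the spike-in scaling: in KIT+ cells over whole testes with the slide as a block, the Hist1h4i probe with a poly(A) signal had a log2 ratio of 0.11 against −0.38 and Hist3h2bb-ps −1.32 against 0.17, and in GFRα1+ cells over whole testes Hist2h2aa2 had −0.079 against 0.33 with the 75th percentile over detected probes. Levels set to the spike-in probes, chosen after seeing the data, moved most comparisons between arrays of unlike spike-in level; the cause was not tested. In NGN3+ over GFRα1+ cells 30 histone probes were then higher and 3 lower, in KIT+ over GFRα1+ cells 39 and 2, and over whole testes 33 and 5 in NGN3+ cells and 6 were lower in KIT+ cells. The changes of sign listed next cover only the probes named by the stated rule in each comparison, and other histone probes turned too. Log2 ratios that changed sign were, in NGN3+ over GFRα1+ cells, 0.072 for Hist1h4j, 0.089 for Hist1h1e, 0.32 for Hist1h4d, 0.32 for Hist1h4k, 0.33 for Hist1h3f, 0.33 for Hist1h2ab, 0.36 for Hist1h3g, 0.46 for Hist1h1a, 1.36 for Hist1h1c, 1.26 for Hist1h1t, 0.89 for Hist1h2aa, 1.104 for Hist2h2aa2, 1.01 for Hist2h2ac, 1.27 for Hist1h2ba, 1.50 for Hist2h2be, 0.40 for Hist2h3c1, 0.42 for Hist2h4 and 0.61 for Hist4h4. In KIT+ over GFRα1+ cells they were 0.14 for Hist1h3g, 0.39 for Hist1h1e, 0.52 for Hist1h1c, 0.75 for Hist1h4d, 0.97 for Hist1h4i, 1.102 for Hist1h3c, 1.18 for Hist2h4, 1.38 for Hist1h1t, 1.06 for Hist3h2a, 0.21 for Hist2h2be, 0.95 for Hist3h2ba, 1.51 for Hist2h3c1 and 1.28 for Hist4h4. Over whole testes they were −0.0033 for Hist2h2aa2 in GFRα1+ cells, 0.079 for Hist1h2ba, 1.09 for Hist1h1c, 0.47 for Hist1h2aa, 1.101 for Hist2h2aa2 and 0.89 for Hist3h2a in NGN3+ cells, and 0.25 for Hist1h1c, 0.51 for Hist1h3a, 1.098 for Hist1h4i and 1.32 for Hist1h1b in KIT+ cells. Leaving out 1 array gave 3 to 6 higher and 26 to 35 lower probes in NGN3+ over GFRα1+ cells, 22 to 25 and 3 to 4 in KIT+ over NGN3+ cells, and 12 to 18 and 12 to 16 in KIT+ over GFRα1+ cells. Over whole testes it gave 27 to 29 and 11 to 13 in GFRα1+, 20 to 22 and 13 to 15 in NGN3+, and 28 to 29 and 10 to 11 in KIT+ cells. With the replicate number as a block, 5 probes were higher and 30 lower in NGN3+ over GFRα1+ cells, 24 and 4 in KIT+ over NGN3+, 14 and 16 in KIT+ over GFRα1+, and over whole testes 28 and 12 in GFRα1+, 21 and 15 in NGN3+ and 28 and 11 in KIT+ cells. Samples with the same number did not deviate together (r = −0.359, −0.548 and 0.225 between KIT+ and NGN3+ arrays), so the numbers were not read as a pairing. KIT+ and NGN3+ arrays of unlike number had r of −0.344 to 0.538, highest between KIT+ replicate 2 and NGN3+ replicate 1, and the cause was not tested. With the 75th percentile taken over detected probes, the median log2 ratio of all probes in NGN3+ over GFRα1+ cells was −0.03 against −0.20, with 7436 higher and 8155 lower against 6030 and 11560. Probes near background carry only a bound.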

Other observations

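Of 12 probes of the Hist2, Hist3 and Hist4 clusters tested in NGN3+ over GFRα1+ cells, 3 were higher and 7 lower, where 18.9% of all probes were higher and 36.3% lower, and of 12 tested in KIT+ over NGN3+ cells, 4 were higher and 2 lower, where 16.9% of all probes were higher and 16.9% lower. Hist3h2a and Hist3h2ba were both lower in KIT+ than in NGN3+ cells. Against whole testes Hist3h2a had a log2 ratio of −2.33 and Hist3h2ba of 1.47 in KIT+ cells. Both calls against whole testes were lost with the slide as a block.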
